A study of Mus musculus with 4 samples.

Results

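The expression of 10 endothelial marker genes was examined in whole mouse liver, 10 of the 13903 genes in the deposited table. They were taken by gene symbol from 2 groups of 5. Stab1, Stab2, Lyve1, Clec4g and Fcgr2b are markers of liver sinusoidal endothelial cells, and Pecam1, Cd34, Plvap, Kdr and Aqp1 are markers of capillary or vascular endothelium. All 10 were found, and all 10 were among the 8963 genes with a mean of 10 CPM or more (reads per 1000000 reads of the library) over the libraries, which were the genes compared.

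All mice were OGT-floxed on the C57BL/6J background and were fed the CDE diet (choline-deficient, ethionine-supplemented), which injures the liver. The OGT-KO groups were given AAV8-TBG-CRE and the control groups AAV8-TBG-eGFP. TBG is a promoter that drives expression in hepatocytes, not in endothelial cells. Tissue was collected without recovery or 7 days into recovery, and 1 library stands for each of the 4 conditions, made from RNA of 3 mice pooled in equal amounts. Neither age nor sex was given in the labels, and livers without the diet were not analysed here. Each condition is a single library, and no test of a condition was run. The intervals below are exact 95% counting intervals and cover counting error only.

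The libraries held 19972699 to 22866431 reads on listed genes, and 3 reads, taken as the floor, correspond to 0.131 to 0.150 CPM. The hepatocyte transcript Alb (albumin) stood between 41362 and 54435 CPM. Ogt, the gene targeted by the virus, stood at 64.7 CPM in the control library and 55.3 CPM in the OGT-KO-labelled library with no recovery, but at 55.7 and 77.7 CPM, respectively, after 7 days. The later pair therefore goes against its label by this transcript on the deposited scale, where its log2 difference was 0.47, but not under upper-quartile (-0.01) or median-ratio scaling (-0.20), and the table does not show which exons the reads come from. Every direction below refers to the OGT-KO-labelled library. Gene for gene, the OGT-KO-labelled libraries also had higher CPM than the controls. The median log2 difference of all genes compared was 0.51 with no recovery and 0.48 after 7 days, with 75.6% and 78.5% of genes above 0. These medians are the level against which each marker is read.

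Liver sinusoidal endothelial cells line the hepatic sinusoids. They are fenestrated, lack an organised basement membrane, and take up waste macromolecules from the blood through scavenger receptors. In capillary and large-vessel endothelium the wall is continuous or has fenestrae closed by diaphragms. When sinusoidal cells take on features of such vessels, the process is called capillarization, a known accompaniment of liver fibrosis. Several of these markers are not exclusive to endothelium. Stab1 and Fcgr2b are also expressed by macrophages, Cd34 by mesenchymal and progenitor cells, and Aqp1 by bile duct epithelium and red cell precursors. Fewer cells of a type and less RNA per cell cannot be told apart in whole tissue.

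Upstream sequences from the RefSeq promoter table, build GRCm38.p6, were matched by symbol for 7 of the 10 genes, and Lyve1, Pecam1 and Plvap had no entry. The 250 bases before the start site are printed 5′ to 3′ for Cd34 and Aqp1, vascular markers with large differences, and for Stab2 and Clec4g, sinusoidal markers with small ones, so that the ends of the range can be read side by side. Capitals mark AGGAAG on either strand, a core sequence of the kind that ETS family factors bind.
Cd34, chr1:194938571-194938820, forward strand: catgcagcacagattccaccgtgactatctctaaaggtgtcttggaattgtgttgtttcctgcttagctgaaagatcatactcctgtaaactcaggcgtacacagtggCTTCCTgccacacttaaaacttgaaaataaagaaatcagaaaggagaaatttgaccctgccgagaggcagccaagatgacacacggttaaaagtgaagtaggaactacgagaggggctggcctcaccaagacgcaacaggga
Aqp1, chr6:55336049-55336298, forward strand: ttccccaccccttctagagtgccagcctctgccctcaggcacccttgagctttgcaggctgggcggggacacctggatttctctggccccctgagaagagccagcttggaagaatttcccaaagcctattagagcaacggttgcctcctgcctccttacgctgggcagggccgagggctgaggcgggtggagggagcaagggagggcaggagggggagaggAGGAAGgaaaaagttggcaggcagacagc
Stab2, chr10:87007943-87008192, reverse strand: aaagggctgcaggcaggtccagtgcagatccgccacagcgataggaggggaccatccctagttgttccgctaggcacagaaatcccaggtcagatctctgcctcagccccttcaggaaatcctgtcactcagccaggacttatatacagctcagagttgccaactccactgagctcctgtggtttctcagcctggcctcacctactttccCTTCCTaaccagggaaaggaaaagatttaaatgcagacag
Clec4g, chr8:3720652-3720901, reverse strand: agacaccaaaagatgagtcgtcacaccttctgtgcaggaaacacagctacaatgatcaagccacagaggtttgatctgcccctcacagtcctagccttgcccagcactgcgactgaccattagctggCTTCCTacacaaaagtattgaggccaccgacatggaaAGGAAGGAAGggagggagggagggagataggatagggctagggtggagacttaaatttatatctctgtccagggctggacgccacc
AGGAAG was present in 5 of the 7 windows (Stab1, Stab2, Clec4g, Cd34 and Aqp1) and in 29.5% of 32851 RefSeq windows of the same length. Clec4g held 3 copies, of which a pair overlap by 2 bases. AGATAA, of the GATA type, was present in 0 of the 7 windows and in 9.99% of all windows. These letters describe the windows and do not locate a bound site, and they did not separate the genes with large differences from those with small ones, since Cd34 and Stab2 each held 1 copy.

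Stab1 and Stab2 encode stabilin-1 and stabilin-2, scavenger receptors that clear ligands from the blood. Stab1 stood at 52.8 CPM in the control library and 107 CPM in the OGT-KO-labelled library with no recovery, and at 41.2 and 89.2 CPM after 7 days. Stab2 stood at 45.6 and 71.1 CPM with no recovery, and at 33.9 and 52.0 CPM after 7 days. Both OGT-KO-labelled libraries were thus above both controls for each stabilin, but by unequal amounts. With no recovery the CPM ratio for Stab1 was 2.03 (1.89 to 2.18), and after 7 days 2.16 (1.99 to 2.35). The ratio for Stab2 was 1.56 (1.44 to 1.69) and 1.53 (1.39 to 1.69). The intervals of the 2 stabilins did not overlap at either time.

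Lyve1, a hyaluronan receptor shared by sinusoidal and lymphatic endothelium, was the lowest of the sinusoidal markers per kilobase in every library. It stood at 4.99 CPM in control and 21.4 CPM in the OGT-KO-labelled library with no recovery, and at 6.11 and 13.2 CPM after 7 days. With no recovery the ratio was 4.29 (3.47 to 5.34), and after 7 days 2.15 (1.74 to 2.68), intervals that do not overlap. Its control values rest on 106 and 122 reads, and it passed the filter on low values only through the OGT-KO-labelled libraries.

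Clec4g encodes LSECtin, a C-type lectin of sinusoidal cells, and Fcgr2b an inhibitory Fc receptor by which these cells remove immune complexes. Clec4g stood at 40.2 CPM in control and 54.2 CPM in the OGT-KO-labelled library with no recovery, and at 27.3 and 41.5 CPM after 7 days. Fcgr2b stood at 35.8 and 60.7 CPM, and at 26.1 and 47.1 CPM, respectively. Clec4g exhibited the smallest difference of the sinusoidal markers at both times, with ratios of 1.35 (1.23 to 1.47) and 1.52 (1.37 to 1.69). For Fcgr2b the ratios were 1.70 (1.55 to 1.86) and 1.81 (1.63 to 2.01).

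Among the vascular markers, Cd34, a sialomucin of capillary endothelium, exhibited the largest difference of all 10 genes. It stood at 1.36 CPM (0.914 to 1.96, 29 reads) in control and 23.7 CPM (21.8 to 25.8, 543 reads) in the OGT-KO-labelled library with no recovery. After 7 days it stood at 1.502 CPM (1.01 to 2.14, 30 reads) and 37.0 CPM (34.6 to 39.6, 836 reads). With no recovery its ratio was 17.4 (12.0 to 26.2), and after 7 days 24.7 (17.1 to 36.8). Cd34 passed the filter in the same way as Lyve1, so that among the genes compared both had to differ.

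Plvap encodes the protein of the diaphragms that close endothelial fenestrae, and Aqp1 a water channel of microvascular endothelium. Plvap stood at 64.9 CPM in control and 159 CPM in the OGT-KO-labelled library with no recovery, and at 31.0 and 111 CPM after 7 days. Aqp1 stood at 67.6 and 179 CPM, and at 40.2 and 132 CPM, respectively. Each was further from its control after 7 days than with no recovery. The ratio for Plvap was 2.46 (2.31 to 2.61) and then 3.58 (3.27 to 3.91). For Aqp1 it was 2.64 (2.49 to 2.81) and then 3.29 (3.04 to 3.56).

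Pecam1 (CD31), an adhesion molecule of endothelial junctions, stood at 19.6 CPM in control and 49.5 CPM in the OGT-KO-labelled library with no recovery, and at 16.4 and 31.0 CPM after 7 days. Kdr, the main signalling receptor for VEGF-A, stood at 37.5 and 49.5 CPM, and at 25.5 and 40.3 CPM. Pecam1 was closer to its control after 7 days, with a ratio of 1.89 (1.66 to 2.16) against 2.52 (2.25 to 2.83) with no recovery. Kdr had the smallest ratio of the vascular markers at both times, 1.32 (1.20 to 1.45) and 1.58 (1.42 to 1.77).

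**Figure D1:**
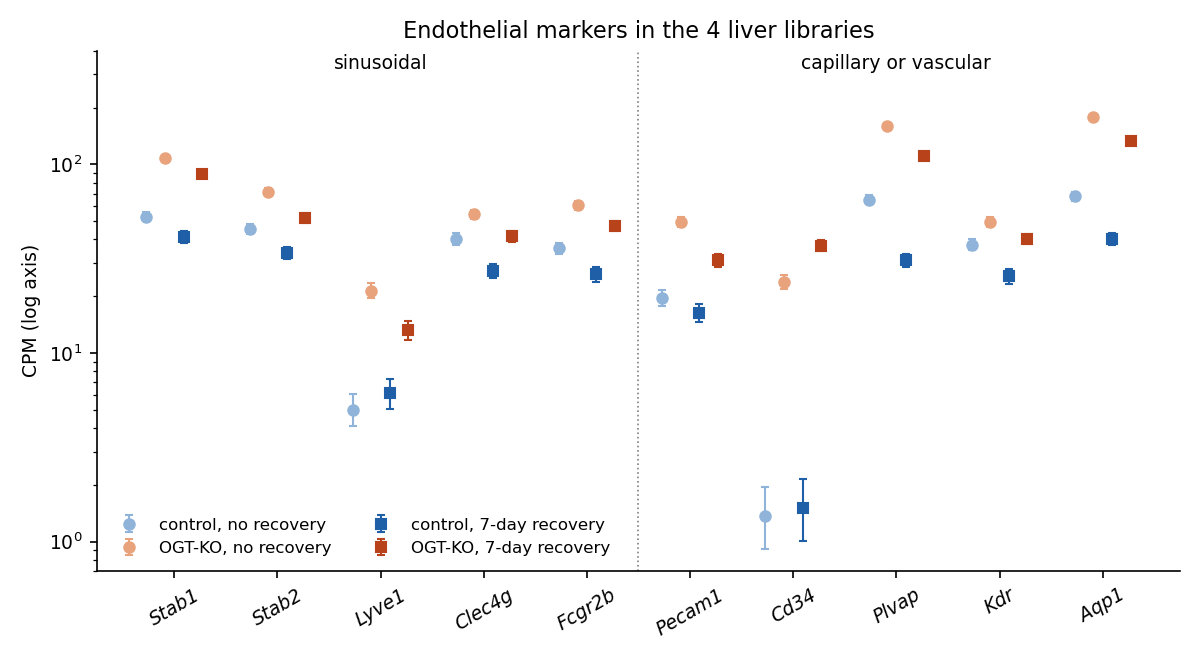
CPM (log axis) of each of the 10 marker genes in the 4 libraries, with sinusoidal markers left and vascular markers right, and bars for exact 95% counting intervals. For each gene the 2 OGT-KO-labelled libraries lie above the 2 controls, with the widest gap for Cd34 (1.36 and 1.502 CPM against 23.7 and 37.0 CPM).

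Differences were next expressed as log2(CPM + 1), on which changes of weakly expressed genes appear smaller than they are, and called at 2-fold. With no recovery, 6 of the 10 markers were at least 2-fold higher in the OGT-KO-labelled library (Stab1, Lyve1, Pecam1, Cd34, Plvap and Aqp1), against 24.4% of all genes compared. After 7 days 4 were (Stab1, Cd34, Plvap and Aqp1), against 22.9%. At neither time was a marker at least 2-fold lower, where 5.69% and 4.27% of all genes were. The calls near the threshold were close, as Stab1 was just inside it with no recovery, at 1.01, and Lyve1 just outside it after 7 days, at 0.99.

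All 10 markers had log2 differences above 0 at both times on the deposited scale, but not under every scaling. After 7 days all 10 also lay above the median gene, and above 0 under upper-quartile scaling, but with no recovery not all did. With no recovery, Clec4g (0.42) and Kdr (0.39) lay at -0.09 and -0.12 relative to the median gene. Stab2 lay 0.12 above it at both times. Scaling by the upper quartile of expressed genes left 8 of 10 markers above 0 with no recovery, with Clec4g at -0.05 and Kdr at -0.08. Scaling by median ratios (each library against the geometric mean of the 4) left 7 of 10 above 0 at each time, with Stab2, Clec4g and Kdr at -0.08, -0.28 and -0.31 with no recovery and at -0.07, -0.08 and -0.02 after 7 days. The remaining 7 markers, Fcgr2b the lowest at 0.04, were above 0 under every scaling.

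The set of 5 sinusoidal markers was then compared with the set of 5 vascular markers. The median log2 difference of the sinusoidal markers was 0.75 with no recovery and 0.83 after 7 days, which is 0.24 and 0.35 above the median gene. The median of the vascular markers was 1.29 and 1.69, or 0.78 and 1.22 above the median gene. The sinusoidal minus the vascular median was thus -0.55 with no recovery and -0.86 after 7 days, a difference that common scaling of a library leaves nearly in place. The sets overlapped, however. Kdr, a vascular marker, lay with Clec4g and Stab2, and Lyve1, a sinusoidal marker, lay above Pecam1, Plvap and Aqp1 with no recovery at 1.90. Without Stab1, Fcgr2b, Cd34 and Aqp1, the 4 genes best known from other liver cells, the sinusoidal minus the vascular median was -0.65 before recovery, and -0.28 at 7 days.

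**Figure D2:**
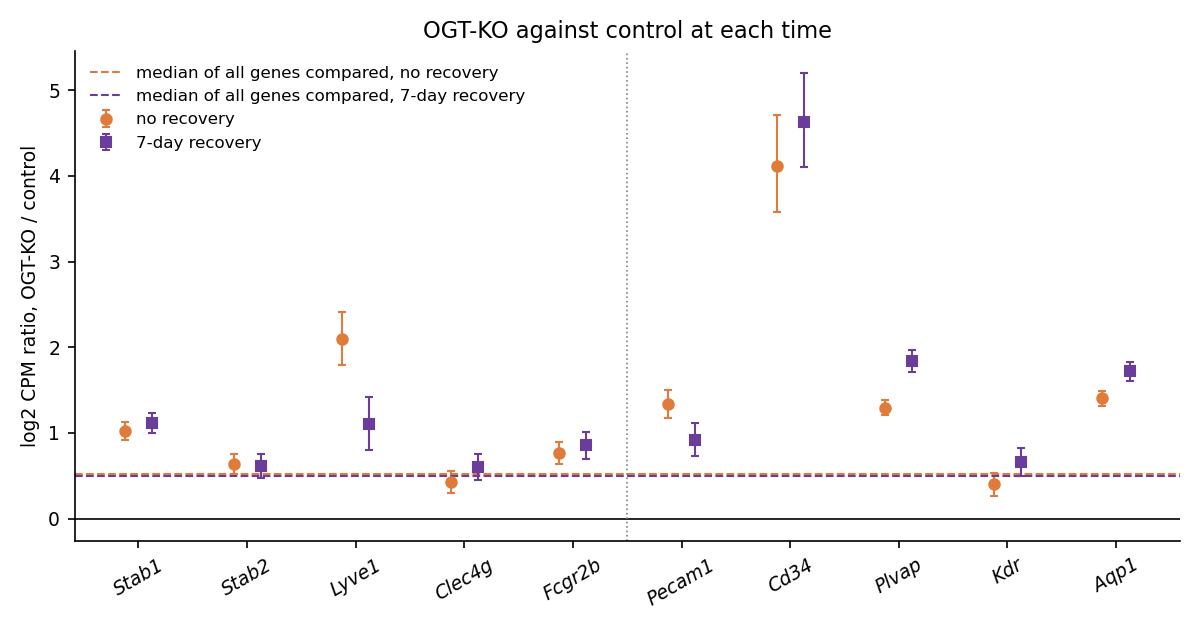
Log2 CPM ratio of the OGT-KO-labelled library to the control library for each marker with no recovery (circles) and after 7 days (squares), with exact 95% counting intervals and dashed lines at the median of all genes compared. Clec4g, Kdr and Stab2 lie near the dashed lines, while Cd34 lies far above all others.

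Ratios of reads between 2 markers of the same library do not depend on scaling. The pairs were chosen after the values were seen. The ratio of Plvap to Stab2 was 1.42 in the control library and 2.24 in the OGT-KO-labelled library with no recovery, and 0.91 and 2.13 after 7 days. This is a log2 change of 0.66 ± 0.07 (counting SE) and 1.22 ± 0.10. The ratio of Kdr to Clec4g barely moved, by -0.03 ± 0.09 and 0.06 ± 0.11. Within the sinusoidal set, Stab1 relative to Stab2 differed by 0.38 ± 0.08 and 0.50 ± 0.09, and Lyve1 relative to Stab2 by 1.46 ± 0.17 and 0.49 ± 0.17. Cd34 relative to Cdh5 (VE-cadherin), a junction protein of endothelium in general, differed by 2.75 ± 0.28 and 2.83 ± 0.28. The intervals behind these SEs cover counting error only, so the spread between mice is not in them.

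Levels of different genes were compared per kilobase of merged exon, with lengths from GENCODE M21 (GRCm38). Plvap was the highest in every library, at 32.7 and 80.2 CPM per kb in control and in the OGT-KO-labelled library with no recovery, and at 15.6 and 55.9 after 7 days. Aqp1 came next in every library (25.7, 68.1, 15.3 and 50.3), with counting intervals that overlapped those of Plvap in the control library after 7 days. Clec4g was the third throughout (16.3, 22.0, 11.1 and 16.8). Stab1 and Stab2 were alike in the controls, at 5.13 and 5.21 with no recovery and 4.01 and 3.88 after 7 days, within their counting intervals. In the OGT-KO-labelled libraries, Stab1 lay above Stab2, at 10.4 against 8.12 with no recovery and 8.67 against 5.94 after 7 days. Cd34 was the lowest in 3 libraries (0.187, 3.26 and 0.206), but at 5.08 it was above Kdr (4.46), Lyve1 (4.51) and Pecam1 (4.97) in the OGT-KO-labelled library after 7 days. Its counting interval there overlapped those of all 3, narrowly for Kdr.

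The 7 days of recovery were compared with no recovery within each virus group. In the controls 8 of the 10 markers were lower after 7 days, with log2 differences from -0.25 (Pecam1) to -1.04 (Plvap). The median gene lay at -0.05, and 39.5% of all genes compared were above 0. Plvap was the only member at least 2-fold lower, 1 of 10 against 0.96% of all genes compared, with a ratio of 0.478 (0.434 to 0.526). None was at least 2-fold higher, against 0.245%. Lyve1 and Cd34 stood at 0.25 and 0.08, and their counting intervals included no difference (ratios 0.937 to 1.60 and 0.639 to 1.90). The medians were -0.41 for the sinusoidal and -0.54 for the vascular markers.

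In the OGT-KO-labelled libraries 9 of the 10 markers were lower after 7 days. The median gene lay at -0.03, and 45.5% of all genes compared were above 0. Pecam1 and Lyve1 had the largest negative differences, both -0.66, and only 1.7% of all genes compared lay below either. Plvap was at -0.52 and Aqp1 at -0.43. Cd34 alone was higher after 7 days, at 0.62 (ratio 1.56, 1.40 to 1.74). None of the 10 was 2-fold higher or lower, where 1.04% and 0.435% of all genes compared were. The medians were -0.38 for the sinusoidal and -0.43 for the vascular markers, so the sets were close to each other in this comparison. The recovery directions were the same under all scalings.

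**Figure D3:**
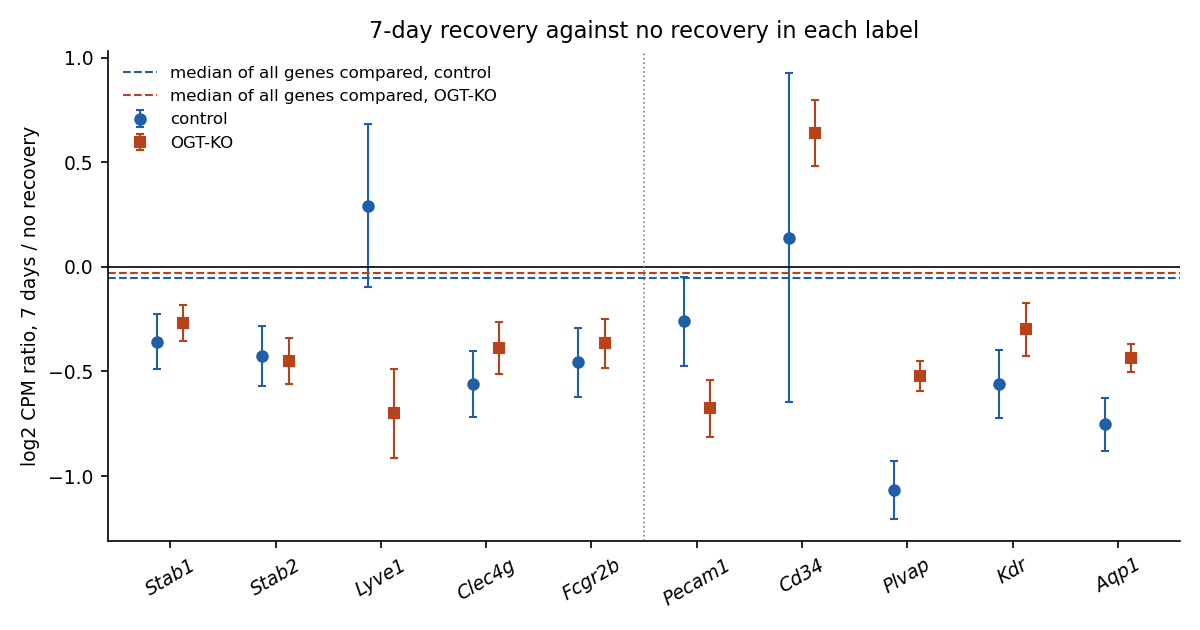
Log2 CPM ratio of 7-day recovery to no recovery for each marker in the control libraries and in the OGT-KO-labelled libraries, with exact 95% counting intervals and dashed lines at the median of all genes compared. Most markers lie below 0 in both groups, Plvap lowest in the controls and Cd34 above 0 in the OGT-KO-labelled libraries.

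Other endothelial genes were read from lists drawn up from known roles. Of 9 further sinusoidal genes 8 were in the table and compared, and their median log2 difference was 0.65 with no recovery and 0.89 after 7 days. Of these, 3 and 4 were at least 2-fold higher, beside 24.4% and 22.9% of all genes compared. By mean difference at the 2 times, Flt4 (VEGF receptor 3, at 1.29 and 1.36) and Mrc1 (the mannose receptor, at 1.12 and 1.41) were the highest. The part of other liver cells in these values was not tested. By the same mean difference, Ehd3 (-0.25 and 0.39) and Dnase1l3 (-0.19 and 0.35) were the lowest. Both were below control with no recovery and above it after 7 days on the deposited scale. After 7 days both were below the median gene (0.48). Under median-ratio scaling 4 of the 8 were above 0 and 4 below at each time. With that scaling 0 were at least 2-fold higher, beside 935 and 1038 of the 8963 genes compared.

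All 15 pan-endothelial genes were in the table and 9 were compared, with medians of 0.82 and 0.85. Of these, 2 and 4 were at least 2-fold higher, beside 24.4% and 22.9% of all genes compared, the former a share near that of all genes. Over all 15 genes, with no filter, 6 and 9 were at least 2-fold higher. Cdh5 (1.34 and 1.73) and Esam, a junctional adhesion molecule (1.35 and 1.11), had the highest mean difference at the 2 times. Esam, at 6.73 and 6.16 CPM in the controls, passed the filter only through the OGT-KO-labelled libraries, so it had to differ. Ptprb, an endothelial phosphatase (0.26 and 0.48), and Robo4, a guidance receptor (0.82 and 0.46), had the lowest mean difference. With no recovery, however, Robo4 lay near the list median (0.82). Under median-ratio scaling 8 and 7 of the 9 were above 0, and 0 and 1 at least 2-fold higher, beside 935 and 1038 of the 8963 genes compared.

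Kdr belongs to the VEGF pathway. Of the 10 VEGF and angiopoietin ligands and co-receptors 9 were in the table and 5 were compared, of which 0 were 2-fold higher or lower on the deposited scale. Of all genes compared, 24.4% and 22.9% were at least 2-fold higher at the 2 times, and 5.69% and 4.27% lower. Vegfa, the ligand of Kdr made mainly by hepatocytes in the liver, stood at 158 and 119 CPM with no recovery and 166 and 109 CPM after 7 days, log2 differences of -0.41 and -0.60. Nrp1, a VEGF co-receptor, was at -0.81 and -0.66. Flt1 (VEGF receptor 1), at 0.78 and 0.68, and Nrp2, at 0.50 and 0.45, were above control on the deposited scale, as was Kdr. Nrp2 lay below the median gene (0.51 and 0.48) at both times, and Kdr did with no recovery. The 4 genes left out by the filter, Vegfc, Vegfd, Angpt1 and Angpt2, were named after their values were seen. All 4 were low, at most 9.75 CPM, and above control at both times, with ratios from 2.08 (Vegfd with no recovery) to 10.6 (Angpt1 after 7 days). Under median-ratio scaling 1 of the 5 was above 0, and 3 with no recovery and 2 after 7 days were at least 2-fold lower. Of the 8963 genes compared, 1381 and 1055 were at least 2-fold lower under that scaling.

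Of 13 zonal and angiocrine endothelial genes 7 were compared, with medians of 1.52 and 1.88. At each time 6 of the 7 were at least 2-fold higher, beside 24.4% and 22.9% of all genes compared. Of these 7, 4 were under 10 CPM in both controls and passed the filter only through the OGT-KO-labelled libraries, among them Thbd, Hgf and Ntn4, so they had to differ. Over all 13 genes, with no filter, 8 and 9 were at least 2-fold higher. Thbd (thrombomodulin, 2.93 and 2.24) and Hgf (hepatocyte growth factor, which stellate cells also make; 2.16 and 2.57) were the highest. Bmp2 (0.84 and 0.79) and Ntn4 (1.03 and 1.02) were the lowest. All 7 stayed above 0 under median-ratio scaling, where 2 with no recovery and 5 after 7 days were at least 2-fold higher. Under that scaling 935 and 1038 of the 8963 genes compared were at least 2-fold higher. Of 13 large-vessel and sprouting genes 11 were in the table, and only Vwf (von Willebrand factor, 1.28 and 1.10) and Pdgfb (3.44 and 3.57) passed the filter. Like Cd34, Pdgfb passed only through the OGT-KO-labelled libraries, at 23.6 and 20.4 CPM against 1.27 and 0.80 CPM in control.

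Markers of other liver cells also differed between the libraries, by more than most endothelial genes, while 24.4% and 22.9% of all genes compared were at least 2-fold higher and 5.69% and 4.27% lower. Of 8 macrophage markers compared 8 were at least 2-fold higher at each time, with medians of 1.90 and 2.80, and the summed level of the 9 listed genes was 305 and 114 CPM in the controls against 1139 and 778 CPM in the other two libraries. Of 5 bile duct markers compared 5 were at least 2-fold higher, although 3 of them, Krt19 (named after its values were seen), Krt7 and Epcam, were under 10 CPM in both controls and had to differ to pass the filter. The summed levels over 6 genes were 53.9 and 69.9 CPM in the controls against 1157 and 1469 CPM. All 8 stellate and fibroblast markers were likewise higher, 2 of them having passed the filter only through the OGT-KO-labelled libraries, with summed levels of 221 and 159 CPM against 2851 and 3475 CPM. For comparison, the summed level of the sinusoidal markers was 179 and 135 CPM in the controls against 315 and 243 CPM, and that of the vascular markers 191 and 115 CPM against 461 and 352 CPM. The part of these cells in the values of Stab1, Fcgr2b, Cd34 and Aqp1 was not tested.

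B cell markers, which bear on Fcgr2b, summed to 0.90 to 3.63 CPM over 3 genes, and mesothelial markers, which bear on Cd34, to 4.81 to 23.5 CPM over 4 genes. Red cell and platelet markers, which bear on Aqp1 and Pecam1, summed over 5 genes to 328 and 260 CPM in the controls and to 101 and 145 CPM in the OGT-KO-labelled libraries. The lower sums rest on Alas2, the haem synthesis enzyme of red cell precursors, at -4.27 and -2.79. Without it the other 4 genes summed to 114 and 88.6 CPM in the controls against 90.6 and 121 CPM. The globins Hba-a1 (-0.35 and 0.46) and Hbb-bs (-0.52 and 0.39) were below control with no recovery and above it after 7 days on the deposited scale. Under upper-quartile and median-ratio scaling, 0 of the 3 red cell and platelet genes compared, the globins among them, were above 0 after 7 days. The platelet genes Pf4 (2.07 and 1.74) and Itga2b (0.86 and 0.40), low in every library and named after their values were seen, were above control at both times. Of 7 hepatocyte markers 3, among them Cyp2e1 at -3.16 and -2.93, were at least 2-fold lower at each time, beside 5.69% and 4.27% of all genes compared. None of the listed genes in the table was at 0 in any library. Their part in the endothelial values was not tested.

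After 7 days in the controls, 8 of 8 macrophage markers were at least 2-fold lower than with no recovery, with a median of -1.32. Beside them, 1 of 10 endothelial markers and 0.96% of all genes compared were at least 2-fold lower. In the OGT-KO-labelled libraries the macrophage median was -0.48.

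**Figure D4:**
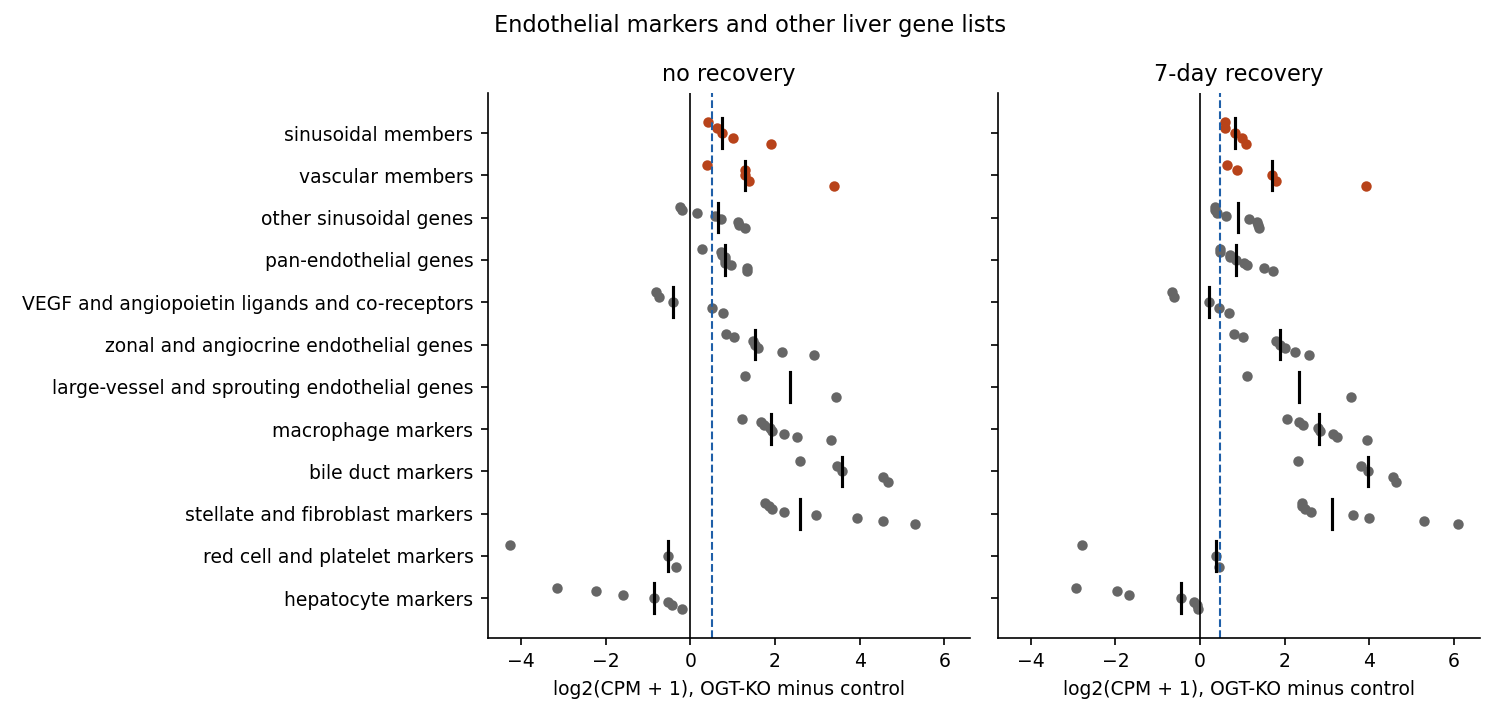
Difference of log2(CPM + 1) between the OGT-KO-labelled library and control for the sinusoidal and vascular markers (red) and for the genes of the other lists that passed the filter (grey), with a black bar at each list's median and a blue dashed line at the median of all genes compared. The macrophage, bile duct and stellate lists lie to the right of most endothelial markers, and the hepatocyte list to the left of 0.

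The genes whose pattern over the 4 libraries was nearest to the mean pattern of each set were taken from the 8953 other genes compared, by Euclidean distance between centred log2(CPM + 1) values. Nearest to the sinusoidal set were Ywhag (0.03), Rrp36 (0.03), Esco1 (0.03), Tmod1 (0.04) and Gimap6 (0.05). Nearest to the vascular set were 2510009E07Rik (0.05) and, at longer distances, Sema6d (0.09), Skil (0.10), Nagk (0.11) and Slc17a9 (0.12). These distances rest on 4 libraries and say nothing of shared function.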

How the data were processed

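Bulk mRNA-seq libraries were prepared from total RNA of liver (TRIzol, Tecan universal plus mRNA-seq), 1 library per condition from the pooled RNA of 3 mice. The authors deposited a single table of CPM for 13903 genes. It is named for DESeq2 normalization, but each column sums to 1000000, and every value was within 0.01 of a whole read, so reads were recovered. The submitters' processing notes name STAR, DESeq2 and GRCm39, without versions or roles. The parts played by these tools, and any filter before deposit, are not given in the sources used here.

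Comparisons took in genes averaging 10 CPM or more, as differences of log2(CPM + 1), and called at 2-fold. Libraries were grouped by their labels. No test was run on the conditions. Counting intervals were Clopper-Pearson intervals of the reads and, for ratios, conditional binomial intervals, all at 95%. Named genes were the 10 markers, Ogt, at most the 2 highest and the 2 lowest genes of each list by mean difference at the 2 times, and the 5 nearest patterns of each set. The markers and lists were chosen with earlier results of these data known. Some listed genes (among them Cd209b, Pgf, Apln, Aplnr, Ms4a1, Ppbp and Tf) were not analysed here. Exon lengths came from GENCODE M21 (GRCm38) and promoter windows from RefSeq (GRCm38.p6), while no gene coordinates were converted between builds. Alternatives were other pseudocounts, filters, scalings and thresholds, the set without 4 of the markers, and a binomial test on the reads. The steps were tested on simulated reads. Python 3.11, numpy 2.4.6, pandas 2.3.3 and scipy 1.17.1 were used.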

Additional observations from a re-analysis of the deposited data

Results flagged for a closer look

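Among the 10 markers, Lyve1 moved in opposite directions during recovery, with a log2 difference of 0.25 in the controls and -0.66 in the OGT-KO-labelled libraries. The counting interval of the control value included no difference, and the difference between the groups was not tested.

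Ogt itself, the gene targeted by the virus, was lower in the OGT-KO-labelled library with no recovery (-0.22) and higher after 7 days (0.47), a difference between the times that was not tested. It was below 0 at both times under upper-quartile scaling (-0.69 and -0.01) and median-ratio scaling (-0.93 and -0.20).

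On the deposited scale, the sinusoidal genes Dnase1l3 (-0.19 and 0.35) and Ehd3 (-0.25 and 0.39) likewise lay below control with no recovery and above it after 7 days. The globin genes Hba-a1 (-0.35 and 0.46) and Hbb-bs (-0.52 and 0.39) did so too. Those differences between the times were not tested either. After 7 days all of these genes were below the median gene (0.48). Under upper-quartile and median-ratio scaling, 0 of the 3 red cell and platelet genes compared, the globins among them, were above 0 after 7 days.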

How the results depend on the processing

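Of 142 values recomputed under other settings, 115 stayed within their counting interval or, for counts, within 1.5 times, 27 moved further and 0 changed direction. Some of these could not move, so the 115 overstate how stable the values are. All 10 markers already passed the filter, so leaving it out changed nothing by construction. A count could not change direction. With a pseudocount of 10 the medians after 7 days were 0.52 (sinusoidal) and 1.5 (vascular), and 0 markers were 2-fold lower on recovery in the controls. With a mean of at least 50 CPM, only Stab1, Stab2, Plvap and Aqp1 were left of the markers. Of these, 3 were 2-fold higher with no recovery, and the share of all genes at that filter is not given here. The vascular median on recovery in the controls, over Plvap and Aqp1 alone, was -0.89. Under upper-quartile scaling the sinusoidal and vascular medians were 0.28 and 0.83 with no recovery and 0.36 and 1.22 after 7 days, 2 markers were 2-fold higher with no recovery, and 0 were 2-fold lower on recovery in the controls. Under median-ratio scaling the medians were 0.04 and 0.60 with no recovery and 0.16 and 1.02 after 7 days, 2 markers were 2-fold higher with no recovery, and the vascular median on recovery in the OGT-KO-labelled libraries was -0.36. Without Stab1, Fcgr2b, Cd34 and Aqp1, 3 markers were 2-fold higher with no recovery and 1 after 7 days, the medians after 7 days were 0.60 and 0.88, the sinusoidal minus the vascular median was -0.65 before recovery, and -0.28 at 7 days, and the vascular median on recovery in the OGT-KO-labelled libraries was -0.52. At a 1.5-fold threshold 10 markers were higher after 7 days (43.0% of all genes compared), 2 were lower on recovery in the controls (4.06%), and 1 was higher (4.17%) and 2 were lower (2.33%) on recovery in the OGT-KO-labelled libraries. Each shift follows from how the alternative was built.

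Over all genes compared, 2185 were 2-fold higher and 510 lower with no recovery on the deposited scale, against 1208 and 981 under upper-quartile and 935 and 1381 under median-ratio scaling. After 7 days the counts were 2050 and 383, 1215 and 740, and 1038 and 1055. The median of all genes was 0.51 and 0.48 as deposited, 0.04 and 0.01 under upper-quartile and -0.19 and -0.18 under median-ratio scaling. Adding the binomial test on the reads, which compares libraries and not conditions, removed none of the 2-fold calls. Of the 7 hepatocyte markers 6 and 4 were 2-fold lower under median-ratio scaling, against 3 and 3 as deposited. The labels number no replicates that could pair the groups, and no fit blocked by recovery time was run. The depth limits Cd34 in the controls most, at 29 and 30 reads, and the pooling of 3 mice leaves the spread between mice unknown.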

Other observations

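Read differences that would pass the adjusted binomial threshold of 0.05 covered most genes, 8011 and 7899 of 8963 between the OGT-KO-labelled libraries and control at the 2 times, so passing it sets the markers apart little. Between the times, 3524 genes passed in the controls and 5048 in the OGT-KO-labelled libraries. These are comparisons of libraries and not of conditions.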
